A study of Mus musculus with 11 samples.

Results

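The genes described here carry glucose into the cell, break it down to pyruvate and move lactate across the membrane. They were chosen as a fixed list of 31 genes, taken by symbol and grouped by the step of the pathway they serve, among 55421 genes counted in each library. All 31 were found in the counts and all 31 passed the filter on low counts, which left 18125 genes for testing. The data were poly(A) RNA counts of articular cartilage dissected from 11 knees of C57BL/6 mice aged 14 weeks, taken 4 weeks after surgery. DMM, destabilization of the medial meniscus, makes the operated knee unstable and serves as an osteoarthritis model. Mice labelled c-FosWT gave 4 contralateral and 3 DMM knees, and 4 DMM knees came from animals with the label c-FosDCh, taken to mean loss of Fos in chondrocytes. All mice shared the strain and the age. The labels give neither the Cre driver, the deleted part of Fos, nor the alleles that the c-FosWT mice carried. Titles tie each c-FosWT DMM knee to a contralateral knee of the same animal, and no contralateral knee of a c-FosDCh mouse was analysed here.

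As background, articular cartilage has no blood vessels, and its chondrocytes live at low oxygen and obtain much of their ATP from glycolysis. Glucose enters through facilitative carriers, is trapped by hexokinase and committed by phosphofructokinase, and after several further steps gives pyruvate, which lactate dehydrogenase turns into lactate for export by monocarboxylate transporters. Most steps have more than 1 isoform, and isoforms are shared out among tissues: skeletal muscle, red cells, leukocytes and neurons each use forms of their own. Oxygen-sensing HIF transcription factors are known to raise many of the widely used forms.

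The libraries held 13593454 to 18280558 gene counts, with a median of 16387548 over all genes. Levels are given as CPM, counts per 1000000 of the TMM-scaled library total. The lowest count behind any value of the 31 genes was 6, for Pklr in a library labelled c-FosDCh. Fos itself had 17.1, 24.8, 22.0 and 15.7 CPM in the 4 contralateral knees, 12.1, 14.1 and 9.01 CPM after DMM in c-FosWT, and 19.4, 10.9, 29.5 and 33.0 CPM in replicates 1 to 4 labelled c-FosDCh. Loss of Fos was not visible in its counts in libraries labelled c-FosDCh, and every direction given for them rests on the label. Cartilage markers were present. The 18 listed summed to 20980 to 37480 CPM in contralateral, 6579 to 17260 CPM in c-FosWT DMM and 21710 to 79710 CPM in libraries labelled c-FosDCh. RNA of other cells was present in every library. The 10 osteoblast and osteocyte markers summed to 23440 to 33240, 32670 to 36030 and 18130 to 56630 CPM in the same order. In c-FosWT DMM that was above the cartilage sum in every library. Red cell markers (15 of 16 matched) summed to 2558 to 7454 CPM in contralateral, 8611 to 13880 CPM in c-FosWT DMM and 583.4 to 4885 CPM in libraries labelled c-FosDCh. Granulocyte markers (14 of 14) summed to 3885 to 11220, 8753 to 15500 and 513.0 to 11940 CPM in the same order, and skeletal muscle markers (15 of 15) to 59.8 to 6570, 278.9 to 9828 and 107.1 to 1376 CPM. The mean log2 CPM of the muscle list stood apart in contralateral replicate 2 (7.50) and c-FosWT DMM replicate 1 (8.21), against 1.39 to 5.77 in the other 9 libraries. Replicates 3 and 4 labelled c-FosDCh had the lowest marrow scores (mean log2 CPM of red cell and granulocyte markers, 6.11 and 4.08). The next lowest was 6.52, in contralateral replicate 3, so only replicate 4 lay far from the rest. They also had the highest cartilage scores (8.65 and 8.61), close to the 8.48 of contralateral replicate 1. In RNA from whole tissue, fewer cells of a type and less RNA per cell cannot be told apart.

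Between the DMM groups, 9 of the 31 genes changed at an adjusted p under 0.05 in edgeR's quasi-likelihood test with Benjamini-Hochberg adjustment over all genes, against 14.4% of the 18125 genes tested. Of these, 6 were higher in libraries labelled c-FosDCh, where 10.6% of all genes were called higher: the glucose carrier Slc2a1, the phosphofructokinases Pfkl and Pfkp, the enolases Eno1 and Eno2, and the lactate dehydrogenase subunit Ldhb. The other 3 were lower, where 3.79% of all genes were called lower: the red cell enzymes Bpgm and Pklr and the lactate carrier Slc16a1. The median log2 difference of the 31 genes was 0.22, with 18 positive and 13 negative, beside a median of -0.01 over all tested genes. DESeq2 called 15 of the 31 genes (11 higher, 4 lower) against 28.4% of the genes it tested. It gave no adjusted p for the muscle forms Pfkm, Pgam2 and Eno3 in any comparison, so only 28 of the 31 could be called. The split over all genes depended on the tool and on scaling: 1929 genes were called higher and 687 lower with TMM scaling, 1176 and 981 with library totals, which moved the median of all genes to -0.18, and 2890 and 2369 with DESeq2. Of the 9 genes, only Ldhb was not called with library totals (0.51, adjusted p = 0.0993), and the direction of all 9 was the same under all 3.

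Between the c-FosWT knees, 0 of the 31 genes passed in edgeR, against 0.0% of all genes, although 8 of the 31 and 3605 of the 18125 had an unadjusted p under 0.05. DESeq2 called 3 of the 31 (Bpgm and Pklr higher and Eno2 lower in DMM knees) against 5.6% of the genes it tested. Between libraries labelled c-FosDCh and contralateral c-FosWT libraries, which differ in both surgery and genotype, edgeR again called 0 of the 31 against 0.0%, with 9 of the 31 and 1512 of all genes at an unadjusted p under 0.05, and DESeq2 called 0 of the 31 against 0.171%. The first 2 comparisons share the c-FosWT DMM libraries, so a value that is low there gives opposite signs in them.

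**Figure D1:**
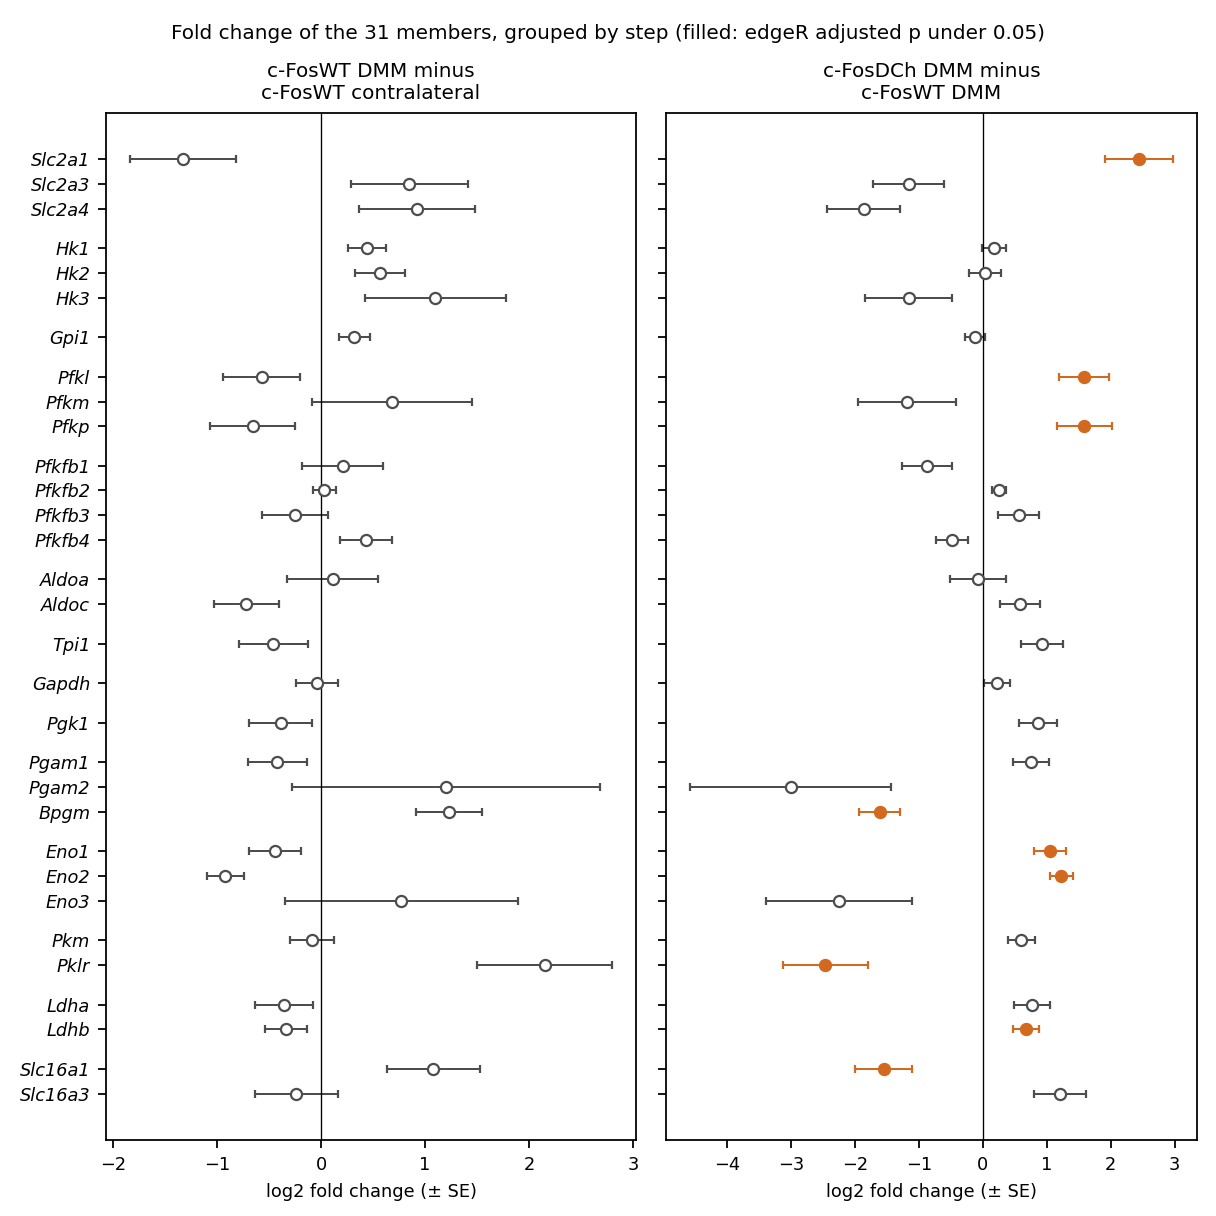
Log2 fold change with its standard error (x axis) of the 31 genes (y axis, grouped by step) between DMM and contralateral c-FosWT knees (left) and between libraries labelled c-FosDCh and c-FosWT DMM libraries (right). Filled points passed an adjusted p under 0.05 in edgeR: 0 genes on the left and 9 on the right, where Slc2a1 lies at 2.44 and Pklr at -2.46.

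Promoter letters were read for the genes that moved between the DMM groups, since HIF proteins are known to bind a core of ACGTG letters, or of GCGTG letters. The red cell factor GATA1 is known to bind AGATAA and TGATAA, and also AGATAG and TGATAG. RefSeq windows (GRCm38.p6, 250 bases before to 50 after a start, both strands searched) were matched for 29 of the 31 genes. Slc2a3 and Slc2a4 had no entry. The HIF core was in at least 1 window of 23 of the 29 genes (79.3%) and of 46.7% of 27025 genes, with 70.2% of the 47 windows of the members and 43.8% of all 32851 windows. The members' windows were also richer in CpG, with a median of 15.0 against 7.0 a window, and the core itself contains CpG and overlaps the E-box letters CACGTG. It was in windows of 5 of the 6 genes called higher (not Eno2), 1 of the 3 called lower (Slc16a1) and 17 of the 20 not called. The GATA letters were in windows of 10 of the 29 genes (34.5%, against 33.0% of all genes): 0 of the 6 called higher, 2 of the 3 called lower (Pklr and Slc16a1) and 8 of the 20 not called. A match is a description of letters and not evidence of binding. The windows shown are those of 2 genes called higher that hold the HIF core, of the called enolase that lacks it, of the red cell mutase, which holds neither motif, and of the upstream of the 2 Pklr windows, which holds the GATA letters. Capitals mark the HIF core in Slc2a1 and Pfkl and the GATA letters in Pklr.
Slc2a1, chr4:119108495-119108794, plus strand: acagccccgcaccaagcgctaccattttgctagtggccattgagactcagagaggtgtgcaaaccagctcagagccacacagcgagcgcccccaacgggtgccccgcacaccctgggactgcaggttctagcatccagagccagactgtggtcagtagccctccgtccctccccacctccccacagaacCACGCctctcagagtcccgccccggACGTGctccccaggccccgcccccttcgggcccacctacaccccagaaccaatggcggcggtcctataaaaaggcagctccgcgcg
Pfkl, chr10:78009758-78010057, minus strand: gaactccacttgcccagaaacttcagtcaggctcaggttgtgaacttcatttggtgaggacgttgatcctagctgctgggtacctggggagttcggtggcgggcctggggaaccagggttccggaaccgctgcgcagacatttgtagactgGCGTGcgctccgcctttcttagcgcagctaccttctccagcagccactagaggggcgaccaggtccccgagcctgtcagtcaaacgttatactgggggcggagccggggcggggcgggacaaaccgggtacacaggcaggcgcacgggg
Eno2, chr6:124769624-124769923, minus strand: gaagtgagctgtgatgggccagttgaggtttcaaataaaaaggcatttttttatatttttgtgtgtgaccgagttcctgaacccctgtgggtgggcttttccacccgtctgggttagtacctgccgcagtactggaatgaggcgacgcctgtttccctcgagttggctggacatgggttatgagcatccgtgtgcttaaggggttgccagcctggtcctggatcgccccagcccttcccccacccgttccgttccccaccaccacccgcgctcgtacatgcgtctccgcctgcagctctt
Bpgm, chr6:34476106-34476405, plus strand: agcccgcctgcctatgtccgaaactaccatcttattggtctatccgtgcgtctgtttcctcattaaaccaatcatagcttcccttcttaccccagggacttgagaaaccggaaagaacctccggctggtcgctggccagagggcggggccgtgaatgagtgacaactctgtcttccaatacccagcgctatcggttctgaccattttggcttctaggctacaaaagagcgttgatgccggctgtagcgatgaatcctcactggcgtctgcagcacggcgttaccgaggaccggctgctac
Pklr, chr3:89135892-89136191, plus strand: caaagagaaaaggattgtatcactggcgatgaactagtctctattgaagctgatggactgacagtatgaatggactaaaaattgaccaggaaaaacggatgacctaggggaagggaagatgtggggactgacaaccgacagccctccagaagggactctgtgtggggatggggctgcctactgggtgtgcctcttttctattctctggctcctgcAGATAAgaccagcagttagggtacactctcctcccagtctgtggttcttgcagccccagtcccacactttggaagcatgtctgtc

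Of the 3 glucose carriers, only Slc2a1 passed between the DMM groups in edgeR. Slc2a1 (ENSMUSG00000028645.11, chr4:119108711-119137983, GRCm38) encodes GLUT1, the widely used carrier. Its level was 97.6, 91.1, 111.0 and 60.9 CPM in contralateral replicates 1 to 4, then 45.7, 22.4 and 39.3 CPM after DMM in c-FosWT, and 102.1, 78.8, 215.5 and 379.0 CPM in replicates 1 to 4 labelled c-FosDCh. All 3 c-FosWT DMM libraries lay below all 8 others, and 2 libraries labelled c-FosDCh, replicates 3 and 4, lay above every other library. Between the DMM groups Slc2a1 rose 5.41-fold in libraries labelled c-FosDCh (log2 2.44 ± 0.53 SE, edgeR adjusted p = 0.0332). Without replicates 3 and 4 the log2 difference was 1.33 and no longer passed (adjusted p = 0.163). Between the c-FosWT knees the log2 difference was -1.33 ± 0.51 (adjusted p = 0.205), and in the 3 animals with both knees it was -1.09, -2.02 and -0.63.

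Slc2a3, which encodes GLUT3, the high-affinity carrier of neurons and leukocytes, had estimates of the opposite sign. It spanned 42.3 to 106.1 CPM in contralateral, 107.6 to 168.5 CPM in c-FosWT DMM and 17.5 to 115.4 CPM in libraries labelled c-FosDCh. The c-FosWT groups did not overlap, but neither comparison passed (log2 0.85 ± 0.56, adjusted p = 0.399, and -1.16 ± 0.56, adjusted p = 0.146, in edgeR). Slc2a4 encodes GLUT4, the insulin-responsive carrier of muscle and fat. It had 7.52, 25.1, 10.1 and 12.6 CPM in contralateral, 39.6, 17.4 and 21.2 CPM in c-FosWT DMM and 5.40, 15.3, 4.69 and 3.18 CPM in libraries labelled c-FosDCh. The DMM groups did not overlap, and the log2 difference of -1.86 ± 0.57 just missed the threshold in edgeR (adjusted p = 0.0524). Its highest contralateral and c-FosWT DMM values were in the muscle-rich libraries. Without those libraries the log2 difference of Slc2a4 between the DMM groups was -1.46 (edgeR adjusted p = 0.1). With the muscle score as a covariate it was -1.49 (edgeR adjusted p = 0.0638). DESeq2 called Slc2a4 lower in libraries labelled c-FosDCh (log2 -1.89, adjusted p = 0.00748).

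Per length (CPM per kb of annotated exon), Slc2a1 held 63.2 ± 12.0% (SD, n = 4) of the summed level of the 3 carriers in contralateral libraries. It held 27.1 ± 6.44% after DMM in c-FosWT (n = 3) and 77.3 ± 19.5% with the label c-FosDCh (n = 4). Slc2a3 was the leading carrier in all 3 c-FosWT DMM libraries, at 37.8, 63.7 and 57.3%, and in no other. The log2 ratio of Slc2a3 to Slc2a1, computed within a library so that scaling cancels, was -0.29 ± 0.94 in contralateral, 1.99 ± 0.72 in c-FosWT DMM and -1.69 ± 2.22 in libraries labelled c-FosDCh. The c-FosWT DMM ratios, 1.23 to 2.67, lay above all others, whose highest was 0.78. In exact two-sided permutation tests the differences of 2.28 and -3.68 gave p = 0.057 and 0.086, and adjusted p = 0.30 for each over the 39 ratio tests made here. Of those 39, 0 passed after adjustment and 2 had an exact permutation p = 0.029, the smallest that 4 against 3 libraries allow.

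Of the 3 hexokinase genes, 0 passed in edgeR in any comparison. Hk3, the hexokinase of myeloid cells, had 101.6, 64.1, 55.4 and 126.7 CPM in contralateral, 109.6, 184.4 and 264.5 CPM in c-FosWT DMM and 160.1, 120.0, 40.4 and 12.9 CPM in libraries labelled c-FosDCh. It spanned the widest range of the 3 hexokinases, and its highest and lowest libraries were those with the highest and lowest granulocyte scores: c-FosWT DMM replicate 3 (9.24) and replicate 4 labelled c-FosDCh (4.14). Its log2 differences were 1.10 ± 0.68 between the c-FosWT knees and -1.16 ± 0.68 between the DMM groups (edgeR adjusted p = 0.376 and 0.217), and with the marrow score as a covariate they were -0.22 and 0.47. Hk1, the widely used form, spanned 114.9 to 137.8, 143.3 to 207.0 and 150.0 to 239.5 CPM in the 3 groups. Both DMM groups lay above the contralateral libraries for Hk1, without passing (log2 0.44 ± 0.18, adjusted p = 0.227 in edgeR, and 0.62 ± 0.17, adjusted p = 0.584). Hk2, the inducible form, spanned 34.1 to 68.9, 67.2 to 79.7 and 58.7 to 106.3 CPM, with a log2 difference of 0.03 ± 0.25 between the DMM groups.

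Gpi1, the isomerase that follows hexokinase, varied less than Hk3. It had 305.0, 243.1, 242.2 and 300.1 CPM in contralateral, 297.6, 323.4 and 398.0 CPM in c-FosWT DMM and 366.4, 282.2, 283.1 and 315.8 CPM in libraries labelled c-FosDCh. The groups overlapped in all 3 comparisons, and the log2 differences were 0.32 ± 0.15, -0.12 ± 0.15 and 0.19 ± 0.14.

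At the committing step, both non-muscle phosphofructokinases rose in libraries labelled c-FosDCh. Pfkl (ENSMUSG00000020277.10, chr10:77986947-78010083), the liver form, had 108.2, 94.0, 108.3 and 60.7 CPM in contralateral, 62.7, 49.5 and 74.8 CPM in c-FosWT DMM and 114.3, 107.2, 216.9 and 313.3 CPM in libraries labelled c-FosDCh. Every library labelled c-FosDCh lay above every c-FosWT DMM library, and the difference was 3.01-fold (log2 1.59 ± 0.39, edgeR adjusted p = 0.0345). Pfkp (ENSMUSG00000021196.14, chr13:6579768-6648777), the platelet form, had 145.8, 148.4, 129.6 and 101.2 CPM, then 94.4, 69.5 and 85.0 CPM, then 137.8, 132.2, 236.4 and 495.4 CPM in the same order. It rose 3.02-fold (log2 1.59 ± 0.43, adjusted p = 0.0401 in edgeR), and replicates 3 and 4 labelled c-FosDCh were again the highest of all libraries for both genes. Without those 2 libraries the differences were 0.82 for Pfkl and 0.69 for Pfkp (edgeR adjusted p = 0.172 and 0.163), and with the marrow score as a covariate 0.55 and 0.33 (adjusted p = 0.536 and 0.619). The log2 ratio of Pfkp to Pfkl stayed between 0.12 and 0.73 in all 11 libraries.

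Pfkm, the muscle form, followed the muscle-rich libraries. It had 42.2, 214.1, 34.2 and 39.7 CPM in contralateral, 292.6, 53.6 and 51.0 CPM in c-FosWT DMM and 39.4, 82.4, 56.7 and 55.5 CPM in libraries labelled c-FosDCh, so that contralateral replicate 2 and c-FosWT DMM replicate 1 exceeded all others. The log2 difference between the DMM groups was -1.18 ± 0.77 (edgeR adjusted p = 0.263), and 0.13 without those 2 libraries.

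The 4 bifunctional enzymes that make and remove the activator of phosphofructokinase did not pass in any comparison with edgeR. Pfkfb3, the inducible form with high kinase activity, had 125.9, 144.4, 96.5 and 97.0 CPM in contralateral, 116.1, 90.1 and 86.6 CPM in c-FosWT DMM and 121.6, 100.1, 102.3 and 250.6 CPM in libraries labelled c-FosDCh. A single library, replicate 4 labelled c-FosDCh, stood above the other 10, and the log2 difference between the DMM groups was 0.56 ± 0.32 (adjusted p = 0.206). Pfkfb4 spanned 27.9 to 75.3 CPM and Pfkfb1 1.35 to 8.61 CPM over all libraries. Pfkfb2, the heart form, was narrow, from 18.4 to 21.6 CPM in the c-FosWT libraries and 22.8 to 27.6 CPM in those labelled c-FosDCh, which lay above all 7 others. Its log2 difference between the DMM groups was 0.26 ± 0.11 (adjusted p = 0.110 in edgeR), and 16.24% of its 75-base exon windows also occur in other annotated genes. Hk1 and Pfkfb2 were the 2 of the 31 genes that separated libraries labelled c-FosDCh from contralateral libraries, against 4.4% of all genes.

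In the middle of the pathway, from aldolase to phosphoglycerate kinase, 0 genes passed in edgeR between the DMM groups, with 4 of the 5 estimates positive. Aldoa, the main aldolase of muscle and most cells, had 490.7, 912.1, 489.1 and 406.8 CPM in contralateral, 1137.0, 319.7 and 404.3 CPM in c-FosWT DMM and 508.1, 468.0, 628.9 and 766.6 CPM in libraries labelled c-FosDCh. The 2 muscle-rich libraries were again the highest, and the log2 difference of -0.07 ± 0.44 between the DMM groups became 0.68 without them (edgeR adjusted p = 0.0923). Aldoc, the brain form, was low, at 2.46 to 6.38 CPM, and held at most 1.15% of the aldolase level per length in any library.

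Tpi1, triose phosphate isomerase, had 242.8, 235.5, 244.9 and 158.1 CPM in contralateral, 232.6, 107.8 and 139.9 CPM in c-FosWT DMM and 242.3, 191.2, 355.2 and 429.5 CPM in libraries labelled c-FosDCh. Gapdh, the dehydrogenase often used as a reference gene, had 186.6, 193.9, 162.5 and 157.1 CPM, then 211.1, 133.1 and 165.1 CPM, then 169.2, 153.2, 220.9 and 245.0 CPM. Pgk1, the first ATP-making enzyme of the pathway, had 69.1, 52.0, 65.0 and 51.3 CPM, then 54.9, 38.5 and 42.8 CPM, then 57.8, 49.8, 98.0 and 124.1 CPM. For all 3 genes the DMM groups overlapped and the highest library was replicate 4 labelled c-FosDCh. The log2 differences between the DMM groups were 0.93 ± 0.33 for Tpi1, 0.22 ± 0.20 for Gapdh and 0.86 ± 0.30 for Pgk1 (edgeR adjusted p = 0.0746, 0.420 and 0.0707). Counts of Pgk1 and Gapdh are uncertain, since 52.77% and 22.61% of their 75-base exon windows, the length of a read, also occur in other annotated genes. For Gapdh these are 121 genes.

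At the phosphoglycerate mutase step the red cell form passed and the other forms did not. Bpgm (ENSMUSG00000038871.5, chr6:34476207-34505613) encodes the red cell mutase that makes bisphosphoglycerate, which lowers the oxygen affinity of haemoglobin. It had 52.4, 65.6, 48.9 and 97.6 CPM in contralateral, 114.1, 161.4 and 190.8 CPM in c-FosWT DMM and 57.0, 70.8, 45.2 and 30.0 CPM in libraries labelled c-FosDCh. The c-FosWT DMM libraries were above all 8 others. Bpgm fell in libraries labelled c-FosDCh relative to c-FosWT DMM, being 3.06-fold lower (log2 -1.61 ± 0.32, edgeR adjusted p = 0.0332), and its log2 difference between the c-FosWT knees was 1.23 ± 0.32 (adjusted p = 0.182), positive in 3 of 3 animals (1.12, 1.30 and 0.97). The red cell list moved with it: 15 of 15 tested markers had a negative estimate between the DMM groups, 6 of them called lower, and 15 of 15 a positive one between the c-FosWT knees, 0 of them called. With the marrow score as a covariate the Bpgm difference between the DMM groups was -0.88 (adjusted p = 0.429).

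Pgam1, the mutase of most cells, spanned 14.4 to 22.7 CPM in contralateral, 14.0 to 14.8 CPM in c-FosWT DMM and 14.9 to 38.5 CPM in libraries labelled c-FosDCh. Its log2 difference between the DMM groups was 0.75 ± 0.28 (edgeR adjusted p = 0.0856), and 34.9% of its exon windows also occur in other genes. The log2 ratio of Bpgm to Pgam1 averaged 3.37 ± 0.42 in c-FosWT DMM (SD, n = 3), beside 1.73 ± 0.55 in contralateral (n = 4) and 1.08 ± 1.09 in libraries labelled c-FosDCh (n = 4). The c-FosWT DMM ratios, 2.91 to 3.73, lay above all others. The differences of 1.64 and -2.29 gave exact permutation p = 0.029 and 0.057 (adjusted p = 0.30 for each).

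Pgam2, the muscle mutase, had 2.13, 44.5, 0.775 and 3.72 CPM in contralateral, 81.2, 3.84 and 2.34 CPM in c-FosWT DMM and 0.876, 10.0, 1.19 and 2.22 CPM in libraries labelled c-FosDCh. Its level per length reached 67.5 and 71.1% of the 3 mutases in the 2 muscle-rich libraries. Replicate 2 labelled c-FosDCh, with the third highest muscle score (5.77), came next at 30.4%. The log2 difference between the DMM groups was -3.00 ± 1.57 (edgeR adjusted p = 0.174), the widest error among the 31 genes, and it was 0.19 without the muscle-rich libraries.

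Both non-muscle enolases rose in libraries labelled c-FosDCh. Eno1 (ENSMUSG00000063524.13, chr4:150236721-150248879), the form of most cells, had 260.9, 184.4, 210.7 and 170.5 CPM in contralateral, 150.8, 127.3 and 177.4 CPM in c-FosWT DMM and 231.3, 230.4, 356.7 and 436.6 CPM in libraries labelled c-FosDCh. The DMM groups did not overlap, and the difference was 2.07-fold (log2 1.05 ± 0.25, edgeR adjusted p = 0.0344). Near-identical copies share 23.0% of its exon windows. Without replicates 3 and 4 labelled c-FosDCh the difference was 0.59 (adjusted p = 0.182), and with the marrow score 0.51 (adjusted p = 0.526).

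Eno2 (ENSMUSG00000004267.16, chr6:124760053-124769673), the form best known from neurons, was low but had the smallest p of the 31 genes in edgeR. It had 13.9, 15.6, 14.0 and 13.4 CPM in contralateral, 9.25, 5.21 and 8.12 CPM in c-FosWT DMM and 17.7, 15.6, 18.6 and 18.7 CPM in libraries labelled c-FosDCh. The c-FosWT DMM libraries lay below all 8 others. Eno2 rose 2.35-fold between the DMM groups (log2 1.23 ± 0.18, edgeR adjusted p = 0.0332), and its log2 difference between the c-FosWT knees was -0.92 ± 0.18 (adjusted p = 0.182), with -0.58, -1.56 and -0.71 in the 3 animals. Its size changed little between settings: the log2 difference was 1.10 with the marrow score, 1.07 with the cartilage score and 1.14 without replicates 3 and 4 labelled c-FosDCh, although none of these passed (adjusted p = 0.429, 0.127 and 0.163). Of the neuronal markers, Rbfox3 was at 0.125 to 0.612 CPM, Tubb3 at 1.11 to 2.43 CPM, Nefm at 0 in every library and Nefl at 0 in 10 of 11. The 9 neuron and Schwann cell markers summed to 97.6 to 131.8 CPM in contralateral, 75.1 to 107.9 CPM in c-FosWT DMM and 109.8 to 229.5 CPM in libraries labelled c-FosDCh. Between the DMM groups 6 could be tested, with 2 positive and 4 negative estimates, and 1 was called higher. Which cells made the Eno2 RNA was not tested. None of the exon windows of Eno2 occur in another gene.

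Eno3, the muscle enolase, had 21.9, 196.1, 12.0 and 23.4 CPM in contralateral, 280.7, 26.7 and 17.2 CPM in c-FosWT DMM and 10.5, 40.0, 16.2 and 24.4 CPM in libraries labelled c-FosDCh. It held 75.0 and 84.3% of the enolase level per length in the 2 muscle-rich libraries and 11.4 to 38.2% in the other 9. The log2 difference between the DMM groups was -2.25 ± 1.14 (edgeR adjusted p = 0.165), and 0.02 without the muscle-rich libraries.

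**Figure D2:**
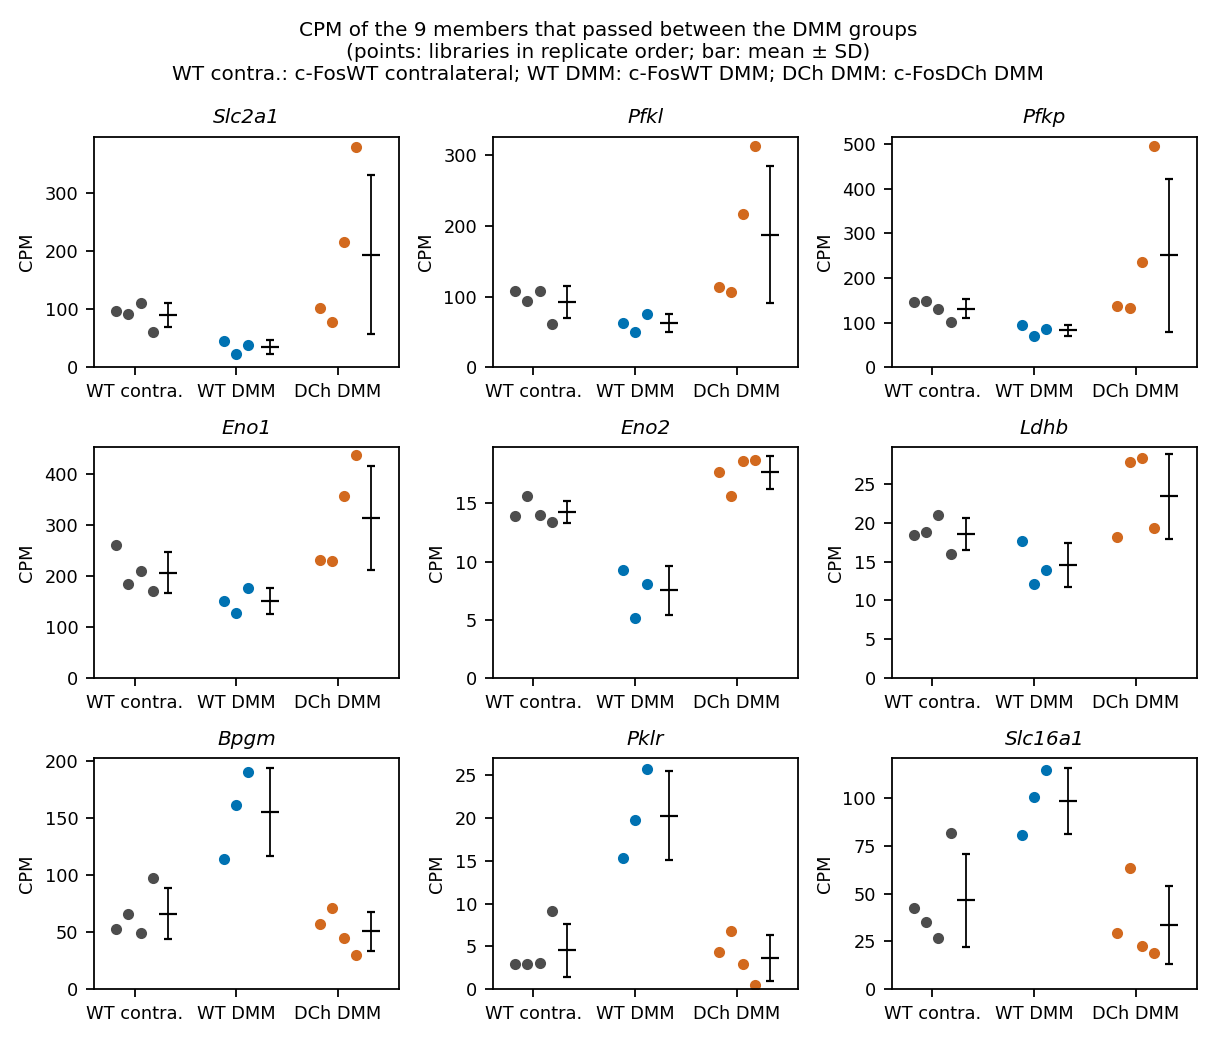
CPM (y axes, from 0) in each library (points) of the 9 genes that passed between the DMM groups, with the mean and SD of each group (bars), for 4 contralateral, 3 DMM and 4 DMM libraries labelled c-FosWT, c-FosWT and c-FosDCh (x axes). For Slc2a1 the c-FosWT DMM libraries reach at most 45.7 CPM and those labelled c-FosDCh 78.8 to 379.0 CPM, while Eno2 in the latter stays between 15.6 and 18.7 CPM.

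RNA for the last step, to pyruvate, came mostly from Pkm, the pyruvate kinase of most tissues. It had 660.9, 601.2, 554.5 and 456.8 CPM in contralateral, 600.2, 445.0 and 562.1 CPM in c-FosWT DMM and 663.4, 627.4, 991.8 and 957.8 CPM in libraries labelled c-FosDCh. Libraries labelled c-FosDCh all lay above the c-FosWT DMM libraries, but the log2 difference of 0.60 ± 0.21 did not pass (edgeR adjusted p = 0.0756). Counts per gene do not tell the spliced forms of Pkm apart, and 17.77% of its exon windows also occur in other genes. Pklr (ENSMUSG00000041237.12, chr3:89136142-89146784) encodes the pyruvate kinase of liver and red cells, which are known to use separate starts. Its level was 2.95, 3.00, 3.04 and 9.15 CPM in contralateral, 15.3, 19.8 and 25.7 CPM in c-FosWT DMM and 4.31, 6.80, 3.00 and 0.477 CPM in libraries labelled c-FosDCh. The c-FosWT DMM libraries again lay above all others. Pklr fell in libraries labelled c-FosDCh, being 5.50-fold lower than in c-FosWT DMM (log2 -2.46 ± 0.66, edgeR adjusted p = 0.0396), and its log2 difference between the c-FosWT knees was 2.15 ± 0.65 (adjusted p = 0.182). Its share of the pyruvate kinase level per length was 3.79 to 6.60% in c-FosWT DMM and 0.0768 to 3.00% in the other 8 libraries. With the marrow score as a covariate its difference between the DMM groups was -0.83 (adjusted p = 0.449), and 19.92% of its exon windows also occur in the annotation of Hcn3.

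Of the lactate dehydrogenase subunits, the minor one passed. Ldha, which favours lactate production, had 410.2, 369.2, 378.7 and 281.0 CPM in contralateral, 372.3, 205.7 and 265.4 CPM in c-FosWT DMM and 400.7, 308.5, 539.5 and 672.5 CPM in libraries labelled c-FosDCh. Its DMM groups overlapped, with a log2 difference of 0.77 ± 0.28 (edgeR adjusted p = 0.0792). Ldhb (ENSMUSG00000030246.11, chr6:142490249-142507957), the heart-type subunit, had 18.4, 18.8, 21.0 and 16.0 CPM, then 17.7, 12.1 and 13.9 CPM, then 18.1, 27.8, 28.3 and 19.3 CPM. The DMM groups were separated only narrowly, at 17.7 against 18.1 CPM, and Ldhb rose 1.60-fold (log2 0.68 ± 0.20, edgeR adjusted p = 0.0479). Of the exon windows of Ldhb, 12.56% also occur in another annotated gene. The log2 ratio of Ldhb to Ldha did not differ between the DMM groups beyond its spread, at -4.20 ± 0.16 (SD, n = 3) and -4.30 ± 0.68 (n = 4), with an exact permutation p = 0.74. Ldha held 84.0 to 94.3% of the level per length in all 11 libraries.

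The 2 lactate carriers had estimates of opposite sign, and Slc16a1 passed. Slc16a1 (ENSMUSG00000032902.1, chr3:104638668-104658462) encodes MCT1, which carries lactate both ways and is also made by red cells. It had 42.5, 35.1, 27.0 and 81.6 CPM in contralateral, 80.6, 100.3 and 114.6 CPM in c-FosWT DMM and 29.3, 63.5, 22.5 and 18.8 CPM in libraries labelled c-FosDCh. Slc16a1 fell in libraries labelled c-FosDCh, being 2.93-fold lower than in c-FosWT DMM (log2 -1.55 ± 0.45, edgeR adjusted p = 0.0477), with no overlap. With the marrow score as a covariate the difference was -0.60 (adjusted p = 0.610). Slc16a3 encodes MCT4, the exporter of glycolytic cells, and had 105.0, 90.1, 82.5 and 63.7 CPM in contralateral, 79.4, 63.7 and 72.9 CPM in c-FosWT DMM and 115.2, 77.8, 150.8 and 323.0 CPM in libraries labelled c-FosDCh. Its log2 difference between the DMM groups was 1.21 ± 0.41 (edgeR adjusted p = 0.0666), and 0.41 without replicates 3 and 4 labelled c-FosDCh. With the marrow score as a covariate the Slc16a3 difference was 0.04 (edgeR adjusted p = 0.971), and with the cartilage score 0.76 (adjusted p = 0.319). DESeq2 called Slc16a3 higher (log2 1.19, adjusted p = 0.0224).

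Within a library, the log2 ratio of Slc16a3 to Slc16a1 averaged -0.44 ± 0.36 in c-FosWT DMM (SD, n = 3), beside 0.97 ± 0.89 in contralateral (n = 4) and 2.26 ± 1.58 in libraries labelled c-FosDCh (n = 4). Per length Slc16a1 held 55.0, 65.4 and 65.4% of the sum of both carriers in c-FosWT DMM, and 23.4, 49.5, 15.2 and 6.54% in libraries labelled c-FosDCh. The difference of 2.70 in the ratio between the DMM groups, whose libraries did not overlap, gave an exact permutation p = 0.057 (adjusted p = 0.30).

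**Figure D3:**
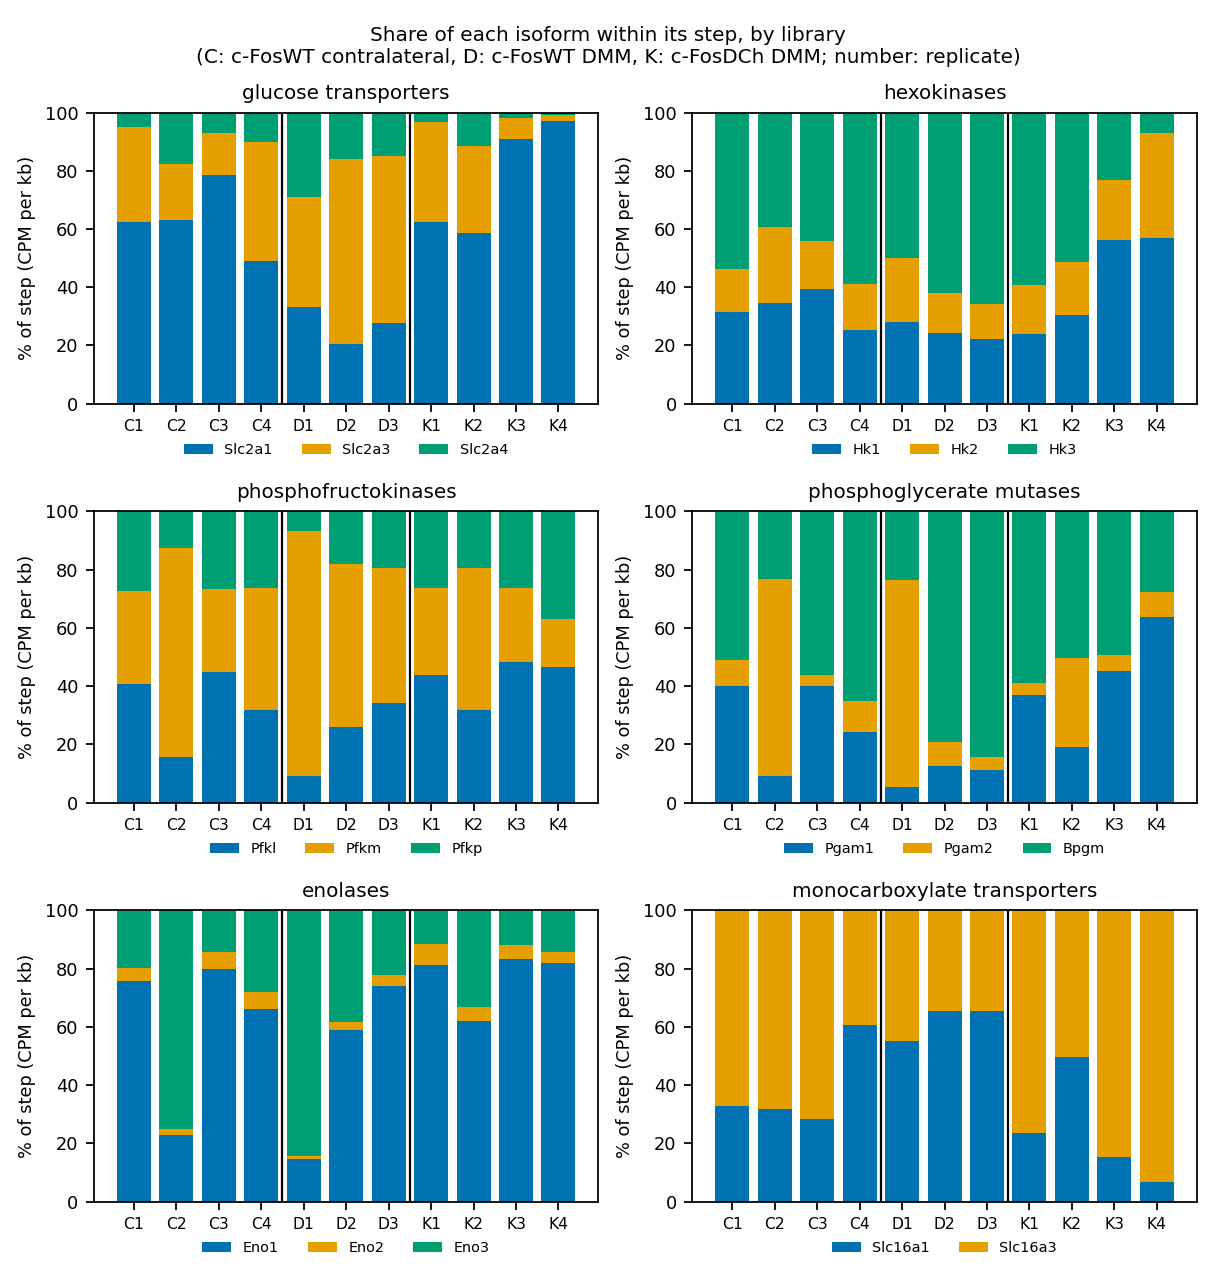
Percent of the summed level per length of a step (y axes, CPM per kb of annotated exon) held by each isoform in each of the 11 libraries (x axes, numbered by replicate within 3 groups), for 6 steps with 2 or 3 isoforms. Muscle forms (Pfkm, Pgam2, Eno3) take their largest shares in contralateral replicate 2 and c-FosWT DMM replicate 1, where Eno3 holds 75.0 and 84.3%, and Slc2a1 holds 20.4 to 33.2% in c-FosWT DMM against 48.9 to 97.0% elsewhere.

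Surgery was compared within the 3 c-FosWT animals that gave both knees. In 3 of 3 animals the difference had 1 sign for 16 of the 31 genes, against 46.2% of all tested genes. The log2 CPM of 10 genes was lower in the DMM knee of every animal, against 24.4% of all genes: Slc2a1, Pfkp, Pfkfb3, Aldoc, Tpi1, Pgk1, Pgam1, Eno2, Ldha and Ldhb. That of 6 genes was higher in every animal, against 21.8%: Slc2a3, Hk1, Hk3, Bpgm, Pklr and Slc16a1. Signs were mixed for the other 15, which include the muscle forms: Pgam2 differed by 5.17, -3.49 and -0.65. The muscle-rich libraries are the DMM knee of the first animal and the contralateral knee of the second. Over all c-FosWT libraries, 7 of the 31 genes did not overlap between the groups (4 higher and 3 lower in DMM), against 23.1% of all genes (10.1% higher and 13.1% lower). Between the DMM groups, 14 did not overlap (10 higher and 4 lower in libraries labelled c-FosDCh), against 33.0% of all genes (17.2% higher and 15.8% lower).

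Among 31 further genes of the pathway listed beside the members, 23 could be tested. Between the DMM groups 4 of the 23 were called higher in libraries labelled c-FosDCh and 0 lower, against 10.6% and 3.79% of all genes, and in each of the other comparisons edgeR called 0. Slc2a13, a myo-inositol carrier of the same family, had 16.0 ± 4.37 CPM (SD, n = 3) in c-FosWT DMM and 32.1 ± 4.68 CPM (n = 4) in libraries labelled c-FosDCh (log2 1.00 ± 0.21, edgeR adjusted p = 0.0332). Slc2a10, which encodes GLUT10, had 15.3 ± 2.75 and 44.9 ± 22.7 CPM (log2 1.55 ± 0.37, adjusted p = 0.0337 in edgeR), and Slc2a8, which encodes GLUT8, 10.2 ± 0.913 and 16.0 ± 1.88 CPM (log2 0.65 ± 0.17, adjusted p = 0.0373). The fourth was Hif1a, which encodes the oxygen-regulated HIF subunit, with 130.8 ± 47.2 and 343.1 ± 153.4 CPM (log2 1.39 ± 0.35, edgeR adjusted p = 0.0364). The liver carrier gene Slc2a2 stayed under 1 CPM in every group mean.

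The listed markers of the cell types were compared in the same fit. Cartilage markers had 14 of 18 positive estimates between the DMM groups, 6 of them called higher, and macrophage and osteoclast markers 12 of 12 negative, 3 of them called lower. Slc2a1 and Eno1 were highest in the 2 libraries with the highest cartilage scores, and Slc2a1 and Eno1 were lowest in c-FosWT DMM replicate 2, which had the lowest (6.44). With the marrow score as a covariate 0 of the 31 genes passed in edgeR, against 0 of all genes, with 5 of the 31 and 1795 of the 18125 at an unadjusted p under 0.05. The log2 differences of the called genes were then between 0.33 and 1.10 for those higher, where Ldhb was at 0.68, and between -0.88 and -0.60 for those lower. With the cartilage score 0 passed as well, with differences of 0.57 to 1.69 and -2.21 to -1.35. The group, these scores and the 2 libraries with the highest cartilage scores cannot be told apart with 3 against 4 libraries.

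**Figure D4:**
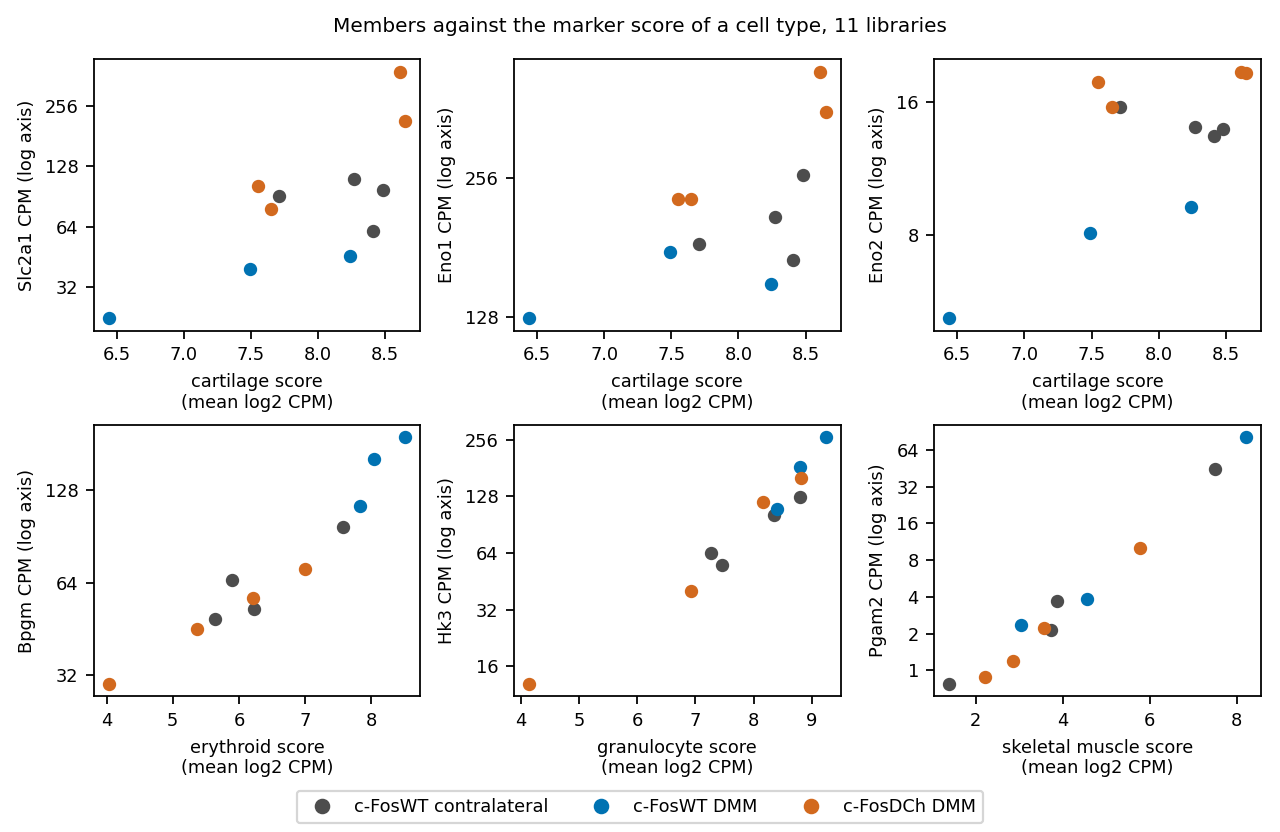
CPM on a log2 axis (y) of 6 genes against the score of a cell type, the mean log2 CPM of its markers (x), in each of 11 libraries coloured by group. Bpgm, Hk3 and Pgam2 lie along the red cell, granulocyte and muscle scores with all 3 groups on 1 band. In c-FosWT DMM, Slc2a1 (22.4 to 45.7 CPM) and Eno2 (5.21 to 9.25 CPM) lie below the other groups. For both genes this includes c-FosWT DMM replicate 1, which had a cartilage score of 8.24, a marrow score of 8.12 and the highest muscle score (8.21). Eno1 in that library, at 150.8 CPM, is also below the other groups, but Eno1 in c-FosWT DMM replicate 3, at 177.4 CPM, overlaps them. The cause of these positions was not tested.

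The calls between the DMM groups depended on which libraries entered the fit, while the direction of the 9 genes was the same in each of 11 fits that left out 1 library and 10 other settings. Leaving out contralateral replicate 1 or 2, c-FosWT DMM replicate 2 or 3, or replicate 3 or 4 labelled c-FosDCh left 0 of the 31 called, and leaving out replicate 2 labelled c-FosDCh gave 15. Fitting only the 2 DMM groups gave 0, with the lowest adjusted p at 0.0846. With 1 library left out, the log2 difference ranged from 1.00 to 1.37 for Eno2, from -1.83 to -1.44 for Bpgm and from 1.89 to 2.70 for Slc2a1.

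**Figure D5:**
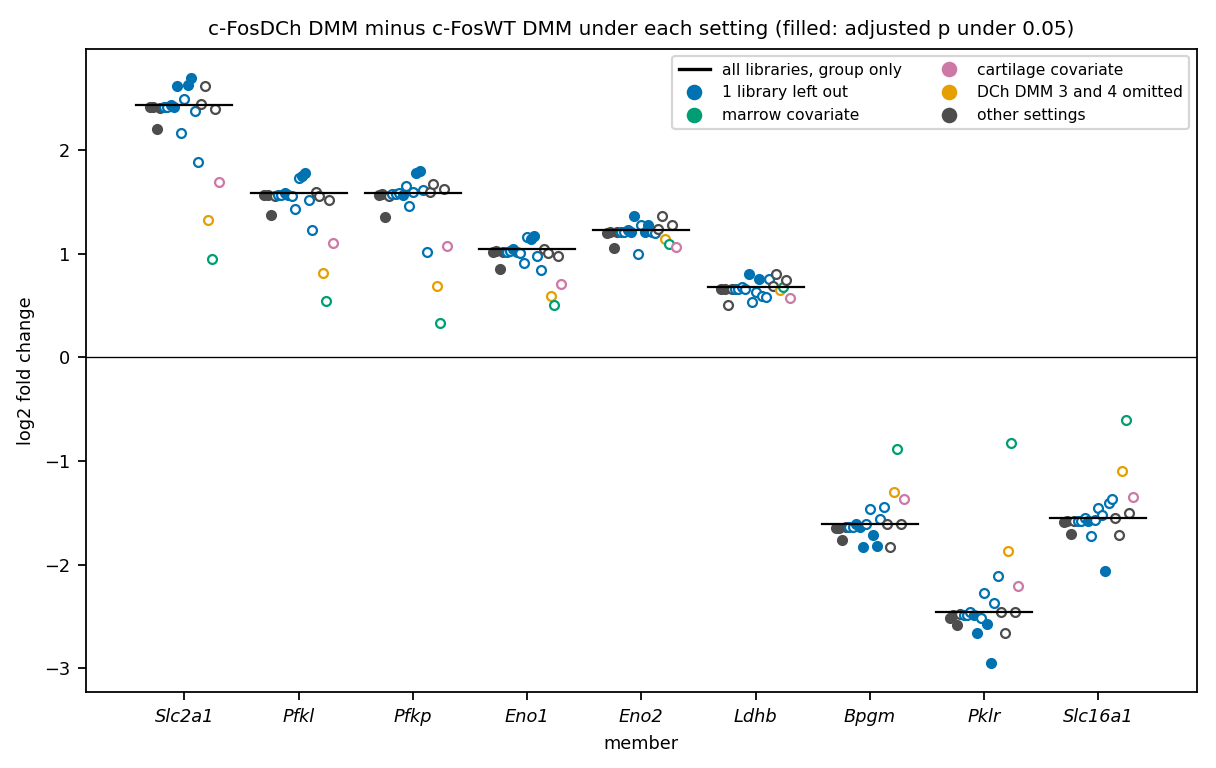
Log2 fold change between libraries labelled c-FosDCh and c-FosWT DMM libraries (y axis) of the 9 called genes (x axis) under each of 21 alternative settings (points, filled where the adjusted p is under 0.05) and with all libraries and group only (lines). With the marrow score as a covariate none of the 9 passes: Eno2 then lies at 1.10, Ldhb at 0.68 and Slc2a1 at 0.95, against 1.23, 0.68 and 2.44 without it.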

How the data were processed

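The values were raw counts per gene, 1 deposited file per library, counted over 55421 genes, with 4 read classes that are not genes kept out of library sizes and tests. Per the labels' protocols, reads of 75 bases were mapped with STAR. Per the submitters' processing notes, the tools were bcl2fastq 2.19.1.403, STAR 2.6.1a, RSEM and DESeq2 1.22.2 on build GRCm38. Which annotation and which strand were counted was not given in the sources used here. Identifiers were matched to GENCODE M21 (55240 of 55421), and Aldoa, a symbol held by 2 identifiers, was taken from the one with the longer exons.

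Counts were analysed with edgeR 4.0.16 in R 4.3.3: filterByExpr, TMM scaling and 1 robust quasi-likelihood fit of all 11 libraries with group as the term, two-sided, called at a Benjamini-Hochberg adjusted p under 0.05 over 18125 genes. The common biological coefficient of variation was 0.315. Standard errors are those of the log2 fold change, and ± with CPM or ratios is the SD. Ratios of isoforms used log2(CPM + 0.5) and exact two-sided permutation tests, whose smallest p for 4 against 3 libraries is 0.029. Levels per length divided CPM by the union of all annotated exons, which understates genes with long alternative exons. Exon windows of 75 bases were compared over all annotated transcripts. DESeq2 1.42.0, other scalings, no filter, left-out libraries, marker scores as covariates (the mean log2 CPM of a list, prior count 2) and the animal as a block were alternatives. The calling steps were tested on simulated data. Those data had less spread between libraries than the real ones and no libraries that stood apart, so the test does not cover these conditions. Titles tie 3 contralateral and 3 DMM knees to the same animals; the correlations of their deviations were -0.17, -0.18 and 0.25, and the primary fit has no block. Labels give 2 c-FosDCh samples the number 1, so replicates of that group were numbered in accession order: replicates 1 and 2 here both carry the label number 1, and replicates 3 and 4 carry the label numbers 2 and 3. All pairs of libraries within a group differed by more than sampling noise (lowest chi-square per degree of freedom 31.03).

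The 31 genes, the marker lists, the further pathway genes and the tests were chosen with earlier results of these data known. Genes given in every library are those called in any comparison, the most abundant form of each step per length, and the muscle, red cell and neuronal forms; further pathway genes are named up to 4 by smallest p.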

Additional observations from a re-analysis of the deposited data

Results flagged for a closer look

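In groups of 4 libraries, a library whose gap to the nearest other exceeded 0.829 of the group's range was singled out. This held for 11 of 88 groups tested. The cut-off singles out about 1 in 20 groups when values are independent and normally distributed. The CPM and ratios tested here share libraries and genes, so 11 of 88 does not measure an excess over chance. No explanation was tested for any library singled out.

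Contralateral replicate 2 stood far above its group for Pfkm (214.1 CPM), Aldoa (912.1 CPM), Pgam2 (44.5 CPM) and Eno3 (196.1 CPM). It also had the highest muscle score of its group (7.50). Replicate 2 labelled c-FosDCh stood above its group for Pgam2 (10.0 CPM) and for the log2 ratios of Pgam2 to Pgam1 (-0.55) and of Eno3 to Eno1 (-2.51), with the highest muscle score of that group (5.77).

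Contralateral replicate 4 stood apart for Pklr (9.15 CPM, above the rest), Tpi1 (158.1 CPM, below the rest) and the log2 ratio of Slc16a3 to Slc16a1 (-0.36, below the rest). Its red cell score of 7.58 was the highest of the contralateral libraries. Replicate 4 labelled c-FosDCh stood above its group for Pfkfb3 (250.6 CPM).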

How the results depend on the processing

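Between the DMM groups, 2616 genes and 9 members were called, and 16 members at an adjusted p under 0.1. The counts were 5259 and 15 with DESeq2, 1443 and 4 with no low-count filter, and 0 and 0 when only the 2 groups were fitted, when the 2 muscle-rich libraries were omitted, when replicates 3 and 4 labelled c-FosDCh were omitted, and with the marrow, muscle or cartilage score as a covariate. With 1 library left out they ranged from 0 to 4626 genes and from 0 to 15 members. Between the c-FosWT knees DESeq2 called 825 genes and 3 members, and between libraries labelled c-FosDCh and contralateral libraries 37 genes. In that comparison edgeR called 0 genes with all libraries and 0 to 1 with 1 left out. With the animal as a replicate block 0 genes and 0 members were called between the c-FosWT knees, as without it, and the block changed no call. DESeq2 size factors and library totals left the count of members at 9 and 8. The cause of these shifts was not tested.

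The 9 genes called between the DMM groups kept their sign there in all 21 alternatives. Signs turned only in comparisons where the gene was not called. With the marrow score as a covariate the log2 differences between the c-FosWT knees were -0.09 for Slc2a3, -0.22 for Hk3, 0.02 for Pfkl, -0.08 for Pfkfb1, 0.16 for Pfkfb3, 0.18 for Gapdh, 0.02 for Pgk1, 0.15 for Pkm, 0.01 for Ldha and 0.36 for Slc16a3, and between the DMM groups 0.13 for Slc2a3, -0.10 for Hk1, -0.24 for Hk2, 0.47 for Hk3, 0.01 for Gpi1, -0.19 for Pfkfb3, 0.07 for Pfkfb4 and -0.18 for Gapdh. Between libraries labelled c-FosDCh and contralateral libraries Slc2a3 was then at 0.04, Hk3 at 0.25, Pfkfb3 at -0.03, Pfkfb4 at 0.12, Aldoa at -0.19 and Pklr at 0.18. With the cartilage score, Gapdh was at 0.20, Pgk1 at 0.05, Pkm at 0.16 and Slc16a3 at 0.16 between the c-FosWT knees, and Gapdh at -0.03 between the DMM groups. With the muscle score, Aldoa was at -0.22 and Eno3 at -0.19 between the c-FosWT knees, Pfkm at 0.02 and Aldoa at 0.44 between the DMM groups, and Pfkm at 0.14 against contralateral libraries. Without the muscle-rich libraries Aldoa was at -0.32 between the c-FosWT knees, Pfkm at 0.13, Aldoa at 0.68, Pgam2 at 0.19 and Eno3 at 0.02 between the DMM groups, and Pfkm at 0.59, Pgam2 at 0.69 and Eno3 at 0.25 against contralateral libraries. Without replicates 3 and 4 labelled c-FosDCh, Hk1 was at -0.15, Hk2 at -0.09 and Gapdh at -0.08 between the DMM groups, and Slc2a3 at 0.37, Hk3 at 0.70, Pfkfb3 at -0.04, Pfkfb4 at 0.31, Aldoa at -0.21, Gapdh at -0.10, Pgk1 at -0.12, Pgam1 at -0.12, Pklr at 0.30 and Slc16a1 at 0.01 against contralateral libraries. Library totals put Hk1 at -0.01 and Hk2 at -0.16 between the DMM groups, and Aldoa at -0.13 and Gapdh at -0.01 against contralateral libraries. The replicate block put Aldoa at -0.08, Pgam2 at -0.11 and Eno3 at -0.07 between the c-FosWT knees.

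With 1 library left out, ranges that cross 0 between the c-FosWT knees were -0.64 to 0.43 for Aldoa, -1.50 to 2.50 for Eno3, -0.20 to 0.12 for Gapdh, -0.63 to 1.78 for Pfkm, -2.02 to 3.70 for Pgam2, -0.16 to 0.05 for Pkm, -0.13 to 0.41 for Pfkfb1 and -0.01 to 0.11 for Pfkfb2. Between the DMM groups they were -0.39 to 0.68 for Aldoa, -2.75 to 0.02 for Eno3, -0.17 to 0.14 for Hk2, -1.57 to 0.13 for Pfkm and -4.35 to 0.19 for Pgam2. Against contralateral libraries they were -0.79 to 0.02 for Slc2a3, -0.60 to 0.32 for Hk3, -0.75 to 0.59 for Pfkm, -0.08 to 0.45 for Pfkfb3, -0.30 to 0.14 for Pfkfb4, -0.10 to 0.36 for Aldoa, -0.32 to 0.06 for Aldoc, -3.16 to 0.69 for Pgam2, -1.89 to 0.25 for Eno3 and -0.80 to 0.29 for Pklr. Log2 isoform ratios crossed 0 for Aldoc to Aldoa (-0.15 to 0.64 between the DMM groups and -0.60 to 0.06 against contralateral libraries), Eno3 to Eno1 (-0.19 to 1.93 between the c-FosWT knees), Hk2 to Hk1 (-0.28 to 0.03 and -0.11 to 0.21, in the order of Aldoc), Ldhb to Ldha (-0.39 to 0.16, -0.35 to 0.20, and -0.05 to 0.12 between the c-FosWT knees), Pfkfb4 to Pfkfb3 (-0.58 to 0.17 against contralateral libraries), Pfkp to Pfkl (-0.20 to 0.01 between the DMM groups and -0.19 to 0.02 between the c-FosWT knees) and Pgam2 to Pgam1 (-1.90 to 0.11 against contralateral libraries and -0.11 to 2.56 between the c-FosWT knees).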
